A study of Mus musculus with 8 samples.

Results

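Mature osteoblasts with high expression of Dmp1 were examined in scRNASeq libraries from mouse parietal bone. Of 68625 deposited cell barcodes, 46420 passed quality control, 2671 were osteoblasts (OBs) and 1075 were mature OBs (mOBs). The cells described here, called Dmp1-high mOBs, were chosen by their counts of 3 genes: they were the 176 mOBs with at least 5 unique molecular identifiers (UMIs, each a counted mRNA molecule) of Dmp1 and at least 1 UMI of Phex or Mepe. They were 16.4% of all mOBs. A cell counted as an OB when Col1a1 reached 10 UMIs and when 2 or more of the 3 genes Runx2, Sp7 and Ibsp had 2 or more UMIs each, and an mOB was an OB in which Col1a1 exceeded 3.5% of all UMIs (3.5 %UMI). The Dmp1-high mOBs were set against the 693 mOBs with 0 Dmp1 UMIs (Dmp1-0 mOBs). The remaining mOBs were 177 cells with 1 to 4 Dmp1 UMIs and 29 cells with at least 5 Dmp1 UMIs but no UMI of Phex or Mepe.

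An osteocyte forms when an OB at the end of its matrix-producing life is buried in the bone it has made. It then extends dendrites through the mineral, connects with its neighbours, and signals to OBs and osteoclasts on the bone surface. Dmp1 encodes an acidic phosphoprotein of the mineralizing matrix, Phex a membrane endopeptidase whose loss causes phosphate wasting, and Mepe a further phosphoprotein of the same family as Dmp1. Sost encodes sclerostin, the Wnt antagonist secreted by osteocytes, and Fgf23 the phosphate-regulating hormone of bone.

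The 8 libraries came from the parietal bones (flat bones of the skull vault) of pups of postnatal days 4 to 5 of the strain B6.129(FVB)-Col1a2tm1Mcbr/J. Libraries S1, S2, S5 and S6 were wild type (WT), and libraries S3, S4, S7 and S8 were heterozygous (Het) for G610C, a germline glycine to cysteine substitution in the triple helical region of the pro-alpha2(I) chain of type I procollagen that models osteogenesis imperfecta. Each library pooled cells from several animals of 1 genotype, so animals could not be told apart and the library was the replicate. Libraries S1 to S4 were made with the 3' v3 kit and processed with Cell Ranger 5.0.0, and S5 to S8 with the 3' v3.1 kit and Cell Ranger 6.0.1, so kit and software version cannot be told apart, while each kit held 2 WT and 2 Het libraries.

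The libraries held from 30480239 to 85162035 UMIs and their cells that passed quality control had a median of 3763 to 14264 UMIs. The Dmp1-high mOBs were deeper than that, with a median of 19347 UMIs, against 15311 in Dmp1-0 mOBs. Per library their summed UMIs ranged from 161179 in S8, with 6 cells, to 806210 in S5, with 34 cells. At most 0.558% of the cells of the smaller library of any pair shared a barcode with the other library. In a principal component analysis of the 8 Dmp1-high sums, the first component took 57.0% of the variance and separated the v3 libraries from the v3.1 libraries.

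The name osteocyte-like was checked against osteocyte genes that the selection did not use. Sost was detected in 52 of the 176 Dmp1-high mOBs (29.5%) and in 16 of the 693 Dmp1-0 mOBs (2.31%). With every cell thinned to 5000 UMIs the shares were 21.5% of 172 cells and 1.08% of 647 cells. Haematopoietic-like cells, which should lack Sost, showed it in 6 of 7180 (0.0836%, median depth 5088 UMIs) and in 0.0546% of 3663 thinned cells. These shares are only a rough guide to Sost RNA from other cells, since they pool libraries and doublets were not removed. Dmp1-high mOBs carried UMIs of a median of 6 of the 12 listed osteocyte genes, against 3 in Dmp1-0 mOBs. Other defining transcripts were nearly absent. Mepe was detected in 6 Dmp1-high cells with 7 UMIs in all (9 UMIs in Dmp1-0 mOBs), and Fgf23 in 1 cell. Phex was detected in 175 of the 176 cells, so in practice the selection rested on Dmp1 and Phex. Because Mepe and Fgf23 were near 0 and Sost was found in fewer cells than not, the cells are named below by their Dmp1 level only.

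The selected genes themselves are given as a description, since they chose the cells. Dmp1 UMIs per Dmp1-high mOB ran from 5 to 268 with a median of 17.5, and 83 of the cells held at least 20. In TMM-scaled CPM (UMI counts relative to the size of each sum, the scale of all levels below), Dmp1 in the sums of Dmp1-high mOBs was 829, 1288, 3239, 1500.3, 1109.5, 2203, 2256 and 1782 in S1 to S8. Phex was 1002 ± 479 CPM (SD, n = 8 libraries) against 75.7 ± 41.6 in Dmp1-0 mOBs, of which 27.8% held a Phex UMI. Col1a1, the major collagen chain gene, was 116121 ± 29212 against 70674 ± 28826 CPM. Dmp1 lies on mouse chromosome 5 (GRCm38, 104202613 to 104214102), as does Spp1 (104435118 to 104441050), another gene of its family, which the selection did not use. Ibsp and Mepe, which the selection used, lie between them.

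At the edge of the selection, the 11 Dmp1-high mOBs with exactly 5 Dmp1 UMIs had a median of 16343 UMIs and 9.14 %UMI of Col1a1, and 9.09% of them held a Sost UMI. The 19 cells just outside, with 4 Dmp1 UMIs and Phex or Mepe, had a median of 14940 UMIs and 11.52 %UMI of Col1a1, and 15.8% held a Sost UMI. The 29 cells with at least 5 Dmp1 UMIs but neither Phex nor Mepe were shallower, with a median of 12285 UMIs. Of these 29 cells, 0 held a Sost UMI. A count of 0 allows an expected count of up to 3 in that many cells, and it sets no limit on cells that express Sost.

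Among the Dmp1-high mOBs the osteocyte genes were unevenly spread. Sost was detected in 16% of the 50 cells with 5 to 9 Dmp1 UMIs, in 18.6% of the 43 cells with 10 to 19, and in 43.4% of the 83 cells with 20 or more. After thinning to 5000 UMIs these shares were 8.51%, 9.52% and 34.9%. Pdpn, which encodes podoplanin, a membrane glycoprotein of early osteocyte dendrites, went from 21.3% to 30.95% and 55.4% of thinned cells over the same steps. Dkk1 was found in 36.2%, 38.1% and 57.8% of thinned cells and Ackr3 in 21.3%, 9.52% and 43.4%, so Ackr3 was lowest in the middle bin. The 52 Dmp1-high cells with Sost had a median of 35 Dmp1 UMIs and 15214 UMIs in all, and the 124 without Sost 13.5 Dmp1 UMIs and 22628 UMIs in all. These values and the bins of Dmp1 UMIs pool cells over libraries, whose Dmp1-high cells differed in their median Dmp1 count (10.5 UMIs in S5 to 51 in S3) and in depth. Within libraries, the cells with Sost had the lower median depth in 5 of 8 and the higher median Dmp1 count in 6 of 8, and the share with Sost was larger among cells with 20 or more Dmp1 UMIs than among the other Dmp1-high cells in 6 of 8, the exceptions being S7 and S8 with 14 and 6 Dmp1-high cells. The share of Dmp1-high cells with Sost was 11.8%, 30%, 52.4%, 35%, 29.4%, 25%, 14.3% and 16.7% in S1 to S8, and was above the share of Dmp1-0 cells (0% to 8.82%) in all 8 libraries.

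The share of mOBs that were Dmp1-high asks whether the mutation changes how many mature cells reach this state. It was 23.3% (17 of 73, exact 95% binomial interval 14.2% to 34.6%), 26.0% (20 of 77, 16.6% to 37.2%), 11.4% (34 of 299, 8.005% to 15.5%) and 11.54% (24 of 208, 7.53% to 16.7%) in the WT libraries S1, S2, S5 and S6. In the Het libraries S3, S4, S7 and S8 it was 26.6% (21 of 79, 17.3% to 37.7%), 20.8% (40 of 192, 15.3% to 27.3%), 13.3% (14 of 105, 7.49% to 21.4%) and 14.3% (6 of 42, 5.43% to 28.5%). The genotypes overlapped, while every v3 library lay above every v3.1 library. The means were 18.0% ± 7.69 in WT and 18.8% ± 6.19 in Het (SD, n = 4 each), a difference of 0.716 percentage points which did not pass when all 70 assignments of the libraries to genotypes were enumerated (two-sided exact permutation p = 0.83). Within kits the Het libraries were 0.923 points lower (v3) and 2.35 points higher (v3.1).

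**Figure D1:**
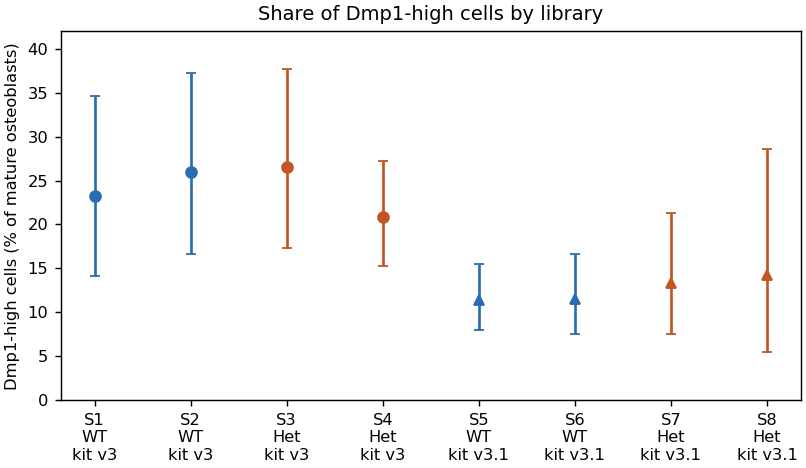
Percent of mOBs that were Dmp1-high in each library (points; bars are exact 95% binomial intervals, which cover counting error only), blue for WT and orange for Het, circles for the v3 kit and triangles for v3.1. The v3 libraries lie between 20.8% and 26.6% and the v3.1 libraries between 11.4% and 14.3%, in both genotypes.

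The kits were compared after these shares had been seen. The v3 libraries averaged 24.2% ± 2.64 and the v3.1 libraries 12.6% ± 1.42 (SD, n = 4 each), given with no test, since the comparison was chosen for this separation. When mOBs were thinned to 5000 UMIs, leaving out 39 WT and 31 Het cells that were shallower, a Dmp1 UMI remained in 30.4% to 46.1% of mOBs of the v3 libraries and in 15.2% to 41.2% of the v3.1 libraries, and the ranges overlapped. The Dmp1-0 mOBs also differed by kit: Pdzrn4, described below, was 18.1 to 40.0 CPM in the v3 libraries and 1238 to 1830.3 CPM in v3.1.

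Dmp1-high mOBs were compared with Dmp1-0 mOBs of the same library to ask which other transcripts go with high Dmp1. The edgeR quasi-likelihood test, with the library as a block, called 446 of 7841 genes higher (5.69%) and 423 lower (5.39%) in Dmp1-high mOBs at a Benjamini-Hochberg adjusted p under 0.05. The genes used for selection took no part in these counts. Of the 446 genes called higher, 433 had the same direction in both kits and 230 in all 8 libraries, and of the 423 called lower 411 and 166. Changes were larger in the v3.1 libraries, where the median log2 difference of the genes called was 1.13 (higher) and -1.52 (lower), against 0.69 and -0.70 in v3. Without the v3.1 library S5 538 genes were called, 525 of them among the 869, and without S6 535, with 526 of them among the 869. The Dmp1-0 cells at least as deep as the shallowest Dmp1-high cell of their library gave 810 calls, 790 of them among the 869. All log2 changes are relative to TMM scaling, which set the median over all genes to -0.00; on plain UMI totals that median was -0.20.

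Genes of osteocytes were higher in Dmp1-high mOBs. Of the 12 listed, 9 were abundant enough to be tested, and 8 rose and none fell. Their median log2 change was 2.61 beside -0.00 over all genes, of which 5.69% were called higher and 5.39% lower. The abundance filter could be passed through the sums of a single class. Genes low in Dmp1-0 mOBs, such as Sost, passed it through the Dmp1-high sums, and genes low in both classes were left out. The count and the median therefore rest in part on this filter. Sost was 33.4, 89.8, 153, 109.8, 50.6, 55.1, 87.6 and 23.6 CPM in the Dmp1-high sums of S1 to S8. In the Dmp1-0 sums it was 0, 2.47, 2.45, 10.9, 4.97, 0.489, 16.5 and 0 CPM. All 8 Dmp1-high sums lay above all 8 Dmp1-0 sums, with a log2 change of 3.89 ± 0.37 (SE) and an edgeR adjusted p of 1.2e-05. Dkk1, which encodes another secreted Wnt antagonist, was 143, 248, 352, 225, 128, 239, 203 and 224 CPM in Dmp1-high mOBs and 69.0, 34.5, 57.5, 87.1, 20.2, 15.2, 15.3 and 29.1 CPM in Dmp1-0 mOBs (log2 change 2.60 ± 0.28, edgeR adjusted p = 3.5e-05), again with no overlap. Pdpn was 98.3, 121, 338, 259, 123, 132, 87.6 and 142 CPM in Dmp1-high mOBs. Its Dmp1-0 levels were 7.27, 12.3, 30.6, 87.1, 22.9, 9.54, 9.66 and 12.5 CPM, with the highest, in S4, just under the lowest Dmp1-high value (log2 change 2.90 ± 0.24, edgeR adjusted p = 3.8e-06).

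The other osteocyte genes that rose were Ackr3, a scavenging receptor for the chemokine CXCL12 (3.28 ± 0.33 on the log2 scale), Fbln7, an extracellular matrix fibulin (3.1 ± 0.39), Ptprz1, a receptor tyrosine phosphatase (2.61 ± 0.18), Irx5, a homeobox transcription factor (1.90 ± 0.26), and Mef2c, a transcription factor that acts on the Sost enhancer (1.02 ± 0.17). Each was higher in all 8 libraries. Cd44, a hyaluronan receptor, was 178 ± 55.9 against 158 ± 89.6 CPM (SD, n = 8) and did not pass (edgeR adjusted p = 0.58). Fgf23, Kcnk2, a potassium channel gene, and Tnfsf11, which encodes RANKL, were too low to be tested. These 8 calls held under each of the alternative settings in which the gene could be tested.

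Not every osteocyte gene followed Dmp1 in steps. In mOBs with 1 to 4 Dmp1 UMIs, Sost averaged 7.19 CPM, Ackr3 6.21, Fbln7 3.57, Pdpn 31.3 and Bmp4 5.66, nearer to their Dmp1-0 means of 4.72, 17.8, 6.86, 24.0 and 7.53 CPM than to their Dmp1-high means of 75.4, 137, 47.4, 163 and 75.0 CPM. Spp1, at 19864 CPM in these cells, lay nearer to its Dmp1-high mean of 29567 than to its Dmp1-0 mean of 7446 CPM. Mef2c (943 CPM) and Postn (892 CPM) were between their values in the other classes. Dkk1 did rise in steps: it was detected in 9.27% of thinned Dmp1-0 cells, 22.5% of those with 1 to 4 Dmp1 UMIs and 47.1% of Dmp1-high cells. The middle class was not required to hold Phex or Mepe, and 112 of its 177 cells did. Its distance from the Dmp1-high class therefore mixes the Dmp1 level with that requirement. Differences between the middle class and the others were not tested.

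**Figure D2:**
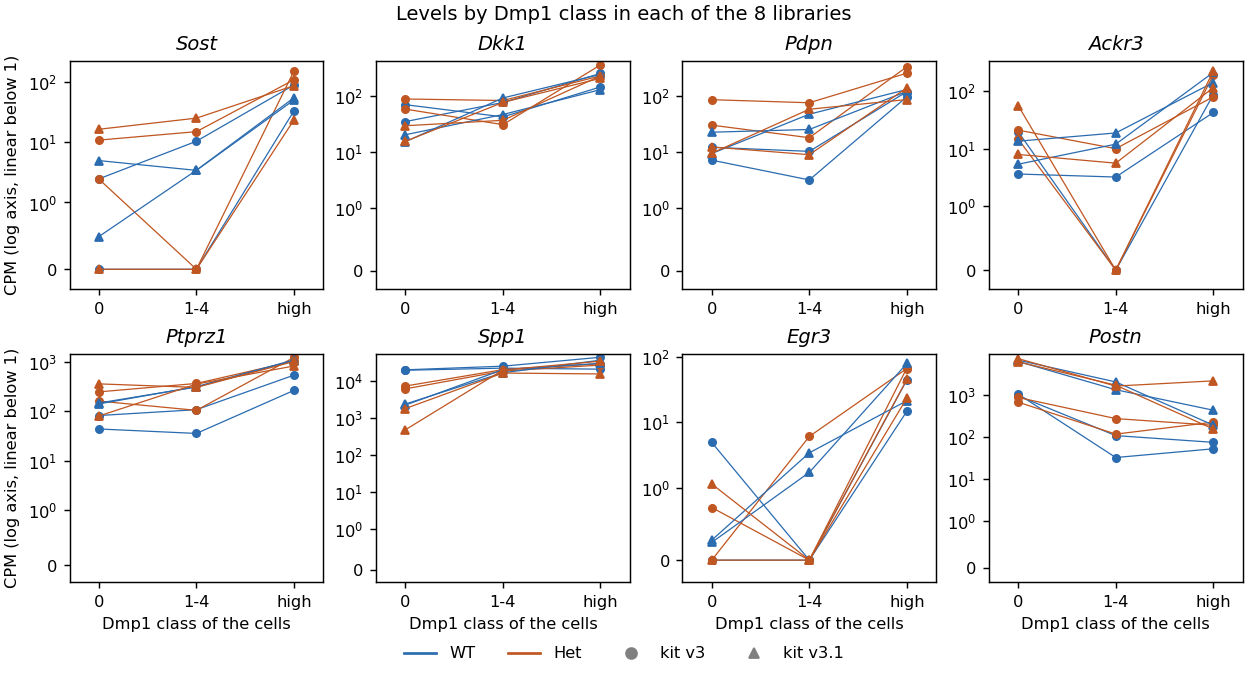
CPM of 8 genes in mOBs with 0 Dmp1 UMIs, with 1 to 4 Dmp1 UMIs and in Dmp1-high mOBs, 1 line per library, blue for WT and orange for Het, circles for v3 and triangles for v3.1 (log axis, linear below 1). Sost, Pdpn, Ackr3 and Egr3 stand up in the Dmp1-high class (Egr3 mean 1.4 CPM in the middle class and 45.7 in Dmp1-high), whereas Spp1 is already high at 1 to 4 UMIs and Postn is lower in both classes with Dmp1.

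Genes that control mineral and phosphate formed the next group. Of 12 listed genes, 10 were tested, 6 rose and 1 fell, beside 5.69% of all genes called higher and 5.39% lower. Spp1, which encodes osteopontin, an inhibitor of crystal growth, was 20809.9, 43709, 29153, 26848, 29937, 36447, 34188 and 15445 CPM in Dmp1-high mOBs of S1 to S8. In Dmp1-0 mOBs it was 19446, 19974, 7247, 6081, 2209.5, 2359.6, 473 and 1782 CPM, so S1 differed little while S7 differed most (log2 change 2.74 ± 0.51, edgeR adjusted p = 0.0025). By kit the mean log2 difference of Spp1 was 1.34 in v3 and 4.25 in v3.1. Enpp1, the enzyme that makes the mineralization inhibitor pyrophosphate, and Ank, which exports it from the cell, rose by 2.94 ± 0.36 and 2.96 ± 0.44 on the log2 scale. Enpp1 was 85.3, 346, 223, 304, 682, 1218, 1362 and 507 CPM in Dmp1-high mOBs and 35.5 to 81.7 CPM in Dmp1-0 mOBs, and only the S1 Dmp1-high value (85.3) was not well clear of that range. Alpl, tissue-nonspecific alkaline phosphatase, which removes pyrophosphate, fell: its Dmp1-high levels were 252, 224, 151, 273, 226, 302, 322 and 201 CPM and its Dmp1-0 levels 429, 298, 332, 500.1, 619, 624, 661 and 759.7 CPM, lower in all 8 libraries (log2 change -1.08 ± 0.14, edgeR adjusted p = 0.00019).

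Fam20c, the kinase that phosphorylates secreted matrix proteins such as Dmp1, rose from 31.4 ± 18.9 to 188 ± 54.3 CPM (SD, n = 8; log2 change 2.89 ± 0.32). Fgfr1, an FGF receptor, and Vdr, the vitamin D receptor, rose by 1.11 ± 0.14 and 1.27 ± 0.25 on the log2 scale, Fgfr1 in 8 and Vdr in 6 of 8 libraries. Smpd3 and Slc20a2 did not pass (edgeR adjusted p = 0.51 and 0.65), nor did Mgp (0.9).

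Late OB genes changed in both directions: of 12 listed, 11 were tested, 6 rose and 1 fell, beside the same shares of all genes. Sparc, which encodes osteonectin, rose by 0.54 ± 0.09 in all 8 libraries. The osteocalcin genes Bglap, Bglap2 and Bglap3 were called higher (1.80 ± 0.51, 1.56 ± 0.42 and 1.49 ± 0.44), but these near-identical copies share reads, so their split is uncertain. The Bglap difference was 3.49 in the v3.1 libraries and 0.19 in the v3 libraries. In v3 library S2 Bglap was lower in Dmp1-high (12878 CPM) than in Dmp1-0 mOBs (18216 CPM), as was Bglap2 (4942 and 6018 CPM). Bglap was not called under 11, Bglap2 under 10 and Bglap3 under 11 of 21 alternatives. Dlx3 and Wif1 rose (1.04 ± 0.27 and 0.60 ± 0.17) and Dlx5, a homeobox gene of the same family as Dlx3, fell (-0.99 ± 0.16, lower in all 8 libraries). Dlx3 was not called under 5 and Wif1 under 9 of 21 alternatives. Ifitm5, Omd and Pth1r did not pass, with edgeR adjusted p of 0.54, 0.94 and 0.35.

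Of 22 collagen and collagen-processing genes, 5 rose and 4 fell, beside 5.69% of all genes called higher and 5.39% lower. Col1a2, which encodes the chain that carries G610C, rose by 0.74 ± 0.14, from 45407 ± 18523 to 75177 ± 23763 CPM (SD, n = 8). Col24a1 and Col11a2, fibrillar collagens, and Bmp1, a procollagen C-proteinase, rose as well (1.52, 0.93 and 0.52), as did the cross-linking enzyme Lox (0.40 ± 0.11). Col3a1 and Col12a1, collagens of softer matrix, fell in all 8 libraries (log2 changes -2.28 ± 0.33 and -2.53 ± 0.30), with Loxl2 (-1.25) and Loxl1 (-1.10). The chaperone Serpinh1 and the prolyl hydroxylation genes P3h1, Crtap and P4ha1 gave log2 changes of 0.06, 0.06, 0.00 and 0.43 and did not pass. Lox and Col11a2 were not called under 11 and 12 of 21 alternatives, Bmp1 under 4 of 21 and Loxl1 under 3 of 20.

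The largest rises outside the lists were led by Egr3, an immediate early transcription factor. Egr3 was 14.8, 44.9, 67.0, 68.2, 21.5, 80.0, 45.5 and 23.6 CPM in the Dmp1-high sums of S1 to S8 and at most 4.93 CPM in the Dmp1-0 sums, 3 of which were at 0 (log2 change 6.19 ± 0.39, edgeR adjusted p = 5.1e-07). Sema7a, a membrane-anchored semaphorin, was 27.8, 21.1, 50.2, 24.9, 25.3, 59.0, 84.1 and 41.3 CPM against 1.14 to 9.87 CPM. Bmp4 and Bmp8a, bone morphogenetic protein ligands, were 75.0 ± 38.2 against 7.53 ± 7.54 CPM and 128 ± 48.6 against 15.6 ± 11.7 CPM. Megf10, an engulfment receptor, Magi1, a junctional scaffold, Dock9, an exchange factor for Cdc42, and Tmtc1 rose by 3.46, 3.59, 3.21 and 3.17 on the log2 scale. The 10 largest rises, with Sost and Ackr3 among them, were chosen from genes higher in 8 of 8 libraries, so that agreement is no result. All 10 were called under all 21 alternatives. Egr3 and Sema7a, low in every Dmp1-0 sum, entered the test through the Dmp1-high sums in which they were high.

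The largest fall was that of Pdzrn4, a PDZ and RING domain gene. It was 0, 0, 8.37, 1.66, 11.4, 2.62, 52.5 and 23.6 CPM in Dmp1-high and 40.0, 24.7, 19.6, 18.1, 1388, 1830.3, 1238 and 1503 CPM in Dmp1-0 mOBs of S1 to S8, with a much higher Dmp1-0 level in the v3.1 libraries (log2 change -6.19 ± 0.53). Postn, which encodes periostin, a matrix protein of the periosteum, was 51.9, 73.9, 223, 188, 428, 189, 2129.5 and 153 CPM in Dmp1-high mOBs. Its Dmp1-0 levels were 1034, 939.7, 666, 858, 6149, 6607, 7198 and 6023 CPM, so the Dmp1-high sum of S7 stood above the Dmp1-0 sums of the v3 libraries although each library fell (log2 change -3.43 ± 0.41, edgeR adjusted p = 7.8e-05). Aspn, an extracellular leucine-rich proteoglycan that binds collagen, fell with a log2 change of -4.24 ± 0.62. Tagln and Myl9, of contractile actin filaments, gave -3.73 ± 0.51 and -3.30 ± 0.42, and Ptn, which encodes the growth factor pleiotrophin, -3.41 ± 0.54. Tnn, encoding tenascin-W, Fndc1, Sncaip and Phldb2 completed the 10 largest (-2.78, -3.82, -3.32 and -2.92).

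**Figure D3:**
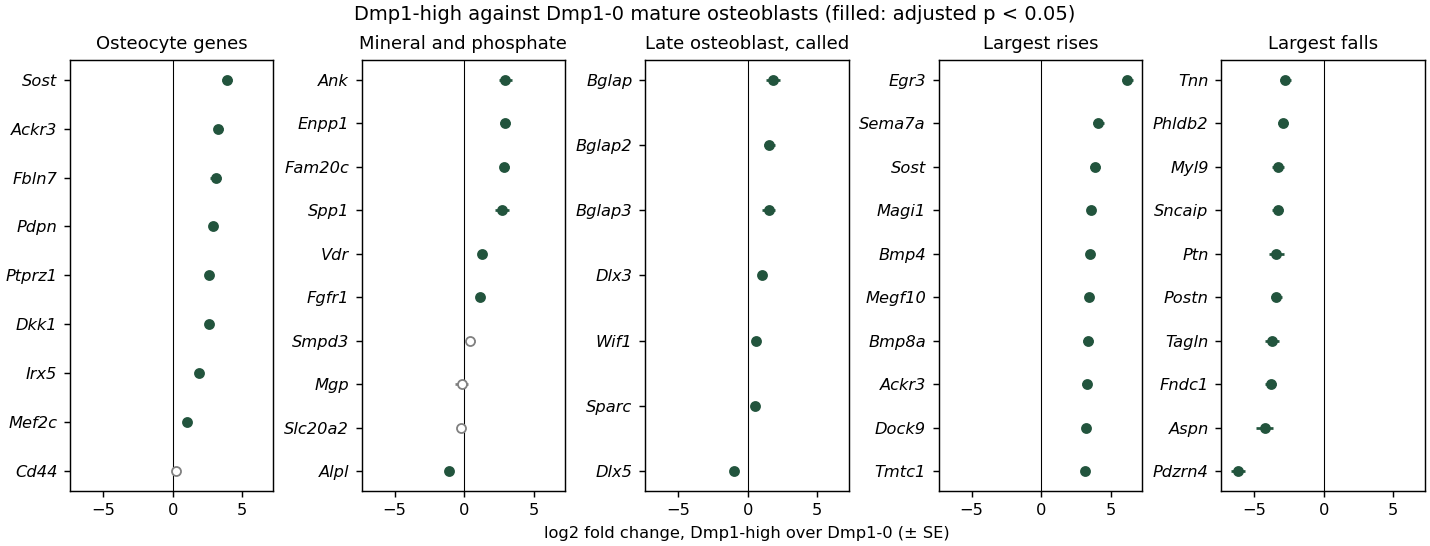
Log2 fold change of Dmp1-high over Dmp1-0 mOBs (points; bars are the SE of the edgeR fit over 8 libraries) for the tested osteocyte and mineral genes, the late OB genes that passed, and the 10 largest rises and falls, filled where the adjusted p was under 0.05. The tested osteocyte genes lie right of 0 with Cd44 the one open point, Alpl (-1.08) and Dlx5 (-0.99) lie left of 0, and Egr3 (6.19) and Pdzrn4 (-6.19) are at the ends.

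Among 13 Wnt pathway genes, 10 were tested, 4 rose and 1 fell, beside 5.69% of all genes called higher and 5.39% lower. Sost and Dkk1, given above, Wif1 (0.60 ± 0.17) and Notum, a Wnt-inactivating esterase (1.31 ± 0.40), rose, and Sfrp2, a secreted frizzled-related protein gene, fell (-2.40 ± 0.36). Frzb, of the same family as Sfrp2, did not pass (0.60 ± 0.39, edgeR adjusted p = 0.4). Notum was not called under 16 of 20 and Wif1 under 9 of 21 alternatives. The receptors Lrp4, Lrp5 and Lrp6 gave log2 changes of 0.52, 0.20 and 0.10 and did not pass.

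Genes of dendrites and adhesion were mixed, with 4 of 17 tested higher and 1 lower, beside 5.69% and 5.39% of all genes. The rises were Pdpn, Itgb3, which encodes the integrin beta3 subunit (2.32 ± 0.30, 29.6 ± 16.6 against 5.47 ± 3 CPM), the actin capping gene Capg (1.41 ± 0.29) and Msn, moesin (0.42 ± 0.11), and the fall was Itgb5 (-0.50 ± 0.13). Msn was not called under 8 and Itgb5 under 5 of 21 alternatives. Gja1, which encodes connexin 43, the gap junction protein of the osteocyte network, was 360.0 ± 76.4 against 345 ± 118 CPM and did not pass (edgeR adjusted p = 0.71). Of 7 tested genes by which osteocytes remodel the matrix around them, 2 rose and none fell, beside 5.69% and 5.39% of all genes. The rises were the TGF-beta receptor genes Tgfbr1 and Tgfbr2 (0.56 and 0.72). The proteases Ctsk, Mmp13 and Mmp14 and the phosphatase Acp5 did not pass.

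Stress genes differed between lists. Of 17 tested endoplasmic reticulum chaperone and unfolded protein response genes, 4 fell (Calr -0.44, Pdia6 -0.57, Creld2 -0.56 and Manf -0.50 on the log2 scale), none rose and 13 had a negative change, beside 5.39% of all genes called lower, and Hspa5, which encodes BiP, did not pass (-0.27 ± 0.13, edgeR adjusted p = 0.21). Calr, Creld2 and Manf were not called under 10 to 14 of the alternatives. Of 19 tested genes of the integrated stress response (ISR), 1 rose, close to the 5.69% of all genes called higher. It was Nupr1, a stress-induced transcriptional regulator (1.07 ± 0.19). None of 7 tested mitochondrial stress genes and none of 11 cell cycle genes passed by edgeR, with 3 of each at an unadjusted p under 0.05. Of 16 hypoxia and glycolysis genes 1 fell (Pgam1, -0.60 ± 0.14), close to the 5.39% of all genes called lower. Of 14 progenitor genes 8 were tested, 1 rose (Pdgfra, 0.65 ± 0.17) and 2 fell, Postn and Aspn, beside 5.69% and 5.39% of all genes. Of 10 tested immediate early genes known to respond to cell dissociation, 5 rose, beside 5.69% of all genes: Egr1 (1.74 ± 0.17), Ier2 (1.22), Junb (1.09), Zfp36 (0.79) and Fos (0.66), while Jun was -0.04 and Jund -0.08. Zfp36 was not called under 10 of 20 alternatives, Fos under 3 and Junb under 2 of 21, for all 3 genes including the fit without cells that held markers of another class, and Egr1 and Ier2 were called under all 21. Egr3 rose beside them, and the part of dissociation in these values was not tested.

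Col1a1 took a median of 10.6 ± 2.50 %UMI of a Dmp1-high mOB and 6.10 ± 1.92 %UMI of a Dmp1-0 mOB (SD of 8 library medians). The difference, 4.47 ± 2.76 points, was positive in all 8 libraries and ran from 0.548 points in S2 to 8.39 in S6. It is a description with no test, since Col1a1 was used to select the mOBs of both classes. Mitochondrial transcripts took 3.73 ± 0.407% of UMIs in Dmp1-high and 4.11 ± 0.242% in Dmp1-0 mOBs, and the difference of -0.376 points did not pass (two-sided exact sign-flip permutation p = 0.109), with S7 in the opposite direction and S2 at a difference near 0. Total UMIs were higher in Dmp1-high mOBs in 7 of 8 libraries and detected genes in 6 of 8. A minimum of 5 Dmp1 UMIs favours deeper cells, so these 2 counts were not tested.

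Transcripts of other cell types were present in both classes. At least 2 markers of another class, at 2 or more UMIs each, were found in 95 of 176 Dmp1-high mOBs (54.0%) and 446 of 693 Dmp1-0 mOBs (64.4%), mostly of cartilage (47 and 327 cells) and red cells (51 and 103), and in S2 in every mOB. The summed level of 6 smooth muscle and pericyte markers was 0 to 148 CPM in Dmp1-high and 72.7 to 824 CPM in Dmp1-0 mOBs, higher in Dmp1-0 mOBs of every library with Acta2 and Tagln, the 2 tested, called lower in Dmp1-high mOBs, and 5 fibroblast markers were 0 to 69.8 against 16.7 to 108 CPM. The 11 haematopoietic markers were 0 to 1407 against 2.08 to 266 CPM, with Cd3e at 0 in Dmp1-high mOBs, 6 cartilage markers 18.5 to 2364 against 43.6 to 2485 CPM, and 6 erythroid markers 5.90 to 10803 against 24.98 to 4284 CPM. The 5 endothelial, 5 osteoclast and 4 Schwann cell markers summed to at most 34.3 CPM per list in Dmp1-high mOBs. The part of RNA from other cells in the class differences was not tested beyond the fit without such cells below. S100a8, a neutrophil gene, was called higher but only in 4 of 8 libraries, at 1205 CPM in S1 and 692 in S2 and at most 9.98 elsewhere, and 616 of the 650 UMIs in S1 came from 1 cell. Without all cells that held such markers 483 genes were called in the 5 libraries left, and the osteocyte calls above remained.

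Het and WT libraries were then compared within the Dmp1-high mOBs, with the kit as a covariate, to ask what the mutation changes in cells at this stage. By the edgeR quasi-likelihood test 12 of 5759 genes passed as higher in Het (0.208%) and 4 as lower (0.0695%), with 507 at an unadjusted p under 0.05. These few calls depended on single libraries and on the kit term: 2 genes were called without WT library S2 (1 of them among the 16), 76 without Het library S8, which held 6 Dmp1-high cells, and none without the kit term (171 at an unadjusted p under 0.05). DESeq2 called 37 genes, 15 of them among the 16.

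Of 15 tested genes of the ISR, 3 rose, beside 0.208% of all genes called higher. The median log2 change was 1.10 over the list and 0.01 over all genes. Asns, which encodes asparagine synthetase, was 38.9, 42.2, 26.6 and 26.2 CPM in the WT libraries S1, S2, S5 and S6. In the Het libraries S3, S4, S7 and S8 it was 304, 273, 52.5 and 189 CPM, all above WT, with S7 the nearest (log2 change 2.49 ± 0.31, edgeR adjusted p = 0.0065). The difference was 2.80 in the v3 and 1.88 in the v3.1 libraries. Atf5, a transcription factor translated under stress, was 46.4, 39.6, 25.3 and 30.2 CPM in WT and 301, 216, 45.5 and 183 CPM in Het, where S7 lay just under WT library S1 (log2 change 2.27 ± 0.33, edgeR adjusted p = 0.0074). Eif4ebp1, a repressor of cap-dependent translation, was 121, 150.5, 77.2 and 57.7 CPM in WT and 472, 451, 112 and 254 CPM in Het, with S7 again inside the WT range (log2 change 1.60 ± 0.24, edgeR adjusted p = 0.0076). Without WT library S2 none of the 3 passed (log2 changes 2.42, 2.16 and 1.62, edgeR adjusted p = 0.058, 0.079 and 0.079). Without the cells that held markers of another class they did not pass either (0.99, 0.24 and 1.31, edgeR adjusted p = 0.69, 0.95 and 0.30), in a fit described below that rested on 3 libraries.

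The other 12 tested genes of the list did not pass. Phgdh and Psat1, of serine synthesis, Mthfd2, of mitochondrial folate metabolism, and Slc3a2, an amino acid transporter subunit, gave log2 changes of 1.42 ± 0.33, 1.30 ± 0.31, 1.23 ± 0.28 and 1.10 ± 0.25 (edgeR adjusted p = 0.085, 0.098, 0.085 and 0.085). Atf4, the transcription factor at the centre of the ISR, was 162 ± 43.7 in WT and 136 ± 44.7 CPM in Het (SD, n = 4 each) and did not pass (edgeR adjusted p = 0.8). Trib3, too low to be tested, was at 0 in all 4 WT sums and 27.9, 11.6, 0 and 29.5 CPM in the Het sums. Sars, a seryl-tRNA synthetase gene outside the list, rose by 1.38 ± 0.26. None of the 16 tested genes of the endoplasmic reticulum response passed by edgeR (1 at an unadjusted p under 0.05). Of 4 tested mitochondrial stress genes 1 rose, Hspa9. Of all genes, 0.208% were called higher and 0.0695% lower.

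Atf4 acts through a composite C/EBP-ATF element, written TGATGNAAN, which is known to drive Asns. In RefSeq promoter windows (GRCm38.p6, 250 bases before to 50 after each start) the element, searched on both strands, was found in 3.95% of 32851 windows. Of the 16 genes called between genotypes, 11 were matched by symbol to a window and searched, and among these Asns had a match. Eif4ebp1, Hspa9, Zfpm2, H19 and Eln were not matched by symbol and were not searched here. The Asns match is shown because Asns had the largest rise of the ISR list. The stretch is chr6:7693214-7693242 on the minus strand, with the element in capitals, from 23 to 15 bases before the RefSeq start. In the GENCODE annotation Asns starts further upstream, at 7693254, so that the element lies inside the gene there.
Asns: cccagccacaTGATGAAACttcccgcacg

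Hspa9, the mitochondrial chaperone mortalin, was 74.2, 73.9, 70.8 and 55.1 CPM in WT and 198, 206, 129.6 and 183 CPM in Het libraries, with no overlap (log2 change 1.37 ± 0.19, edgeR adjusted p = 0.0065). Hspa9 did not pass without WT library S2 (1.35, edgeR adjusted p = 0.062) or without the cells that held markers of another class (1.74, edgeR adjusted p = 0.076), and after thinning to 5000 UMIs its log2 change was 0.48 (edgeR adjusted p = 0.78). With at least 10 Dmp1 UMIs it did not pass either. Phf10, a chromatin remodelling subunit gene, was 42.6, 42.2, 25.3 and 35.4 CPM in WT and 165, 239.5, 52.5 and 147 CPM in Het, and Cyb5r1, a cytochrome b5 reductase gene, 5.45 ± 2.67 and 31.2 ± 12.5 CPM (SD, n = 4 each). Both had every Het value above every WT value. Phf10 was not called under 4 of 20 alternatives, Cyb5r1 under 9 of 16 and Sars, given above, under 8 of 20.

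Genes that fell in Het Dmp1-high mOBs included Wif1, which encodes Wnt inhibitory factor 1. Wif1 was 818, 1048, 595 and 982 CPM in WT and 329, 284, 231 and 313 CPM in Het libraries, with a gap between the groups in both kits (log2 change -1.57 ± 0.22, edgeR adjusted p = 0.0065). Klhl33, of the kelch-like family, was 40.8, 76.6, 38.0 and 40.7 CPM in WT and 11.2, 9.98, 3.5 and 5.9 CPM in Het, and Gal, which encodes the neuropeptide galanin, 51.9, 39.6, 26.6 and 22.3 and 14.0, 11.6, 0 and 5.9 CPM, both without overlap (-2.59 ± 0.38 and -2.13 ± 0.40). Adamts9, a secreted metalloprotease gene, fell (log2 change -1.77 ± 0.24), with Het library S7 (70.05 CPM) just above the lowest WT library (68.6). Gal was not called under 8 of 15 alternatives, Adamts9 under 4 of 20, Wif1 under 3 of 21 and Klhl33 under 2 of 18. Bglap, 18729, 12878, 8609 and 18201 CPM in WT and 3554, 2407, 1054 and 7409.8 CPM in Het, did not overlap between genotypes but did not pass (log2 change -2.04 ± 0.46, edgeR adjusted p = 0.085).

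Cartilage and matrix genes made up part of the rises. Col9a1 and Col9a2, chains of cartilage type IX collagen, rose by 2.78 ± 0.49 and 3.20 ± 0.62, from 3.71, 10.6, 72.1 and 27.5 CPM of Col9a1 in WT to 128, 18.3, 329 and 277 CPM in Het. Beside them the 6 cartilage markers, Col9a1 included, summed to 18.5 to 473 CPM in the WT and 91.5 to 2364 CPM in the Het Dmp1-high sums, and Col2a1, the main cartilage collagen gene, was 11.1, 13.2, 278 and 106 and 834, 48.2, 1716 and 419 CPM. Both sets overlapped through Het library S4. The part of cartilage RNA in these calls was not tested. Eln, which encodes elastin, was 3.71, 66.0, 93.6 and 95.7 CPM in WT and 368, 225, 613 and 195 CPM in Het (log2 change 2.58 ± 0.48), and the noncoding RNA H19 rose by 2.27 ± 0.38. Zfpm2, a transcription cofactor gene, rose by 2.22 ± 0.37 but was at most 2.79 CPM in the v3 libraries of either genotype. Eln was not called under 11 of 21 alternatives, DESeq2 and the replicate block among them, and its log2 change was 0.31 without the cells that held markers of another class. Col9a1 was not called under 6 and Col9a2 under 7 of 19 alternatives, H19 under 6 of 21 and Zfpm2 under 7 of 15. Erythroid markers ran the other way, from 57.7 to 10803 CPM in WT and from 5.90 to 1216 CPM in Het, with S2 the highest. The smooth muscle and pericyte markers summed to 2.64 to 10.5 CPM in WT and 0 to 148 CPM in Het, where S3 was the highest and S8 at 0, the fibroblast markers to 0 to 9.27 and 0 to 69.8 CPM, and the haematopoietic markers to 2.62 to 1407 and 0 to 266 CPM. The part of these cell types in the genotype calls was not tested beyond the fit without such cells, which rested on 3 libraries.

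Osteocyte genes did not pass between genotypes: of 9 tested, none was called by edgeR and 1 was at an unadjusted p under 0.05. Few genes were called at all, 0.208% higher and 0.0695% lower. Sost was 33.4, 89.8, 50.6 and 55.1 CPM in WT and 153, 109.8, 87.6 and 23.6 CPM in Het libraries, which overlapped (log2 change 0.73 ± 0.35, edgeR adjusted p = 0.57), and differed by 1.23 in the v3 and -0.20 in the v3.1 libraries. Dkk1 gave 0.40 ± 0.25 and Pdpn 0.69 ± 0.29 on the log2 scale. Dmp1 itself, compared within the selected cells, was 1358 ± 595 CPM in WT and 2194 ± 763 CPM in Het (SD, n = 4 each), a description only because Dmp1 chose the cells.

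**Figure D4:**
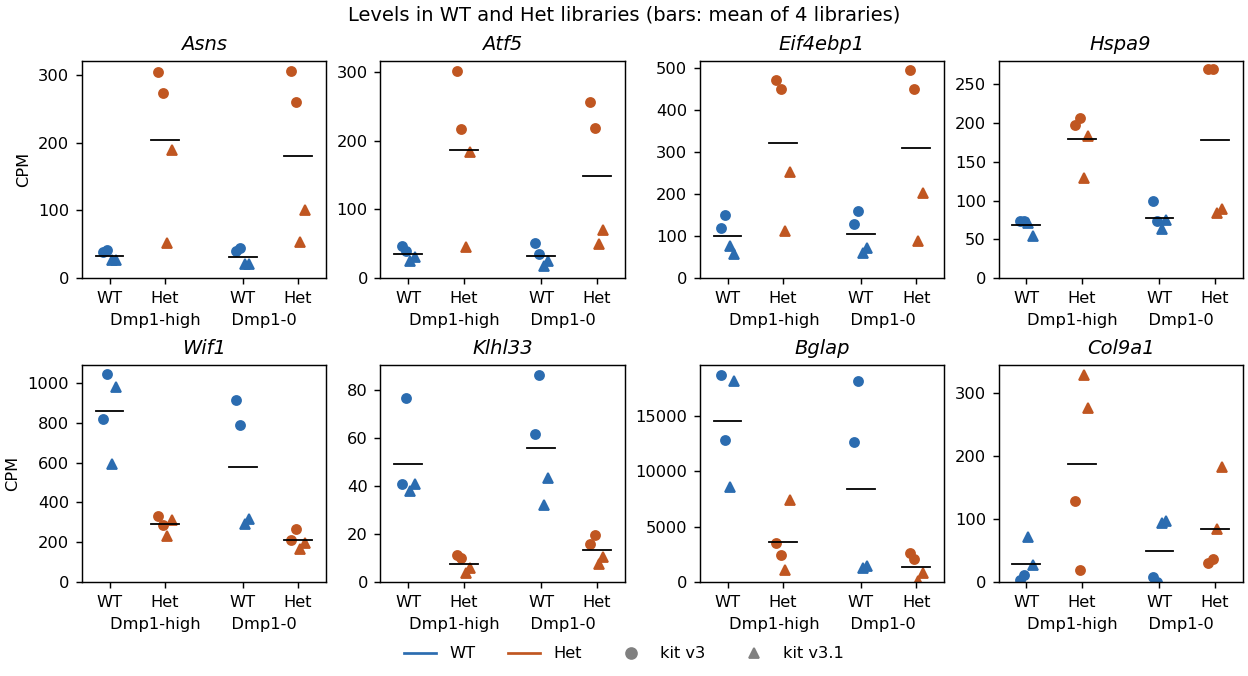
CPM of 8 genes in WT (blue) and Het (orange) libraries for Dmp1-high mOBs (left pair) and Dmp1-0 mOBs (right pair), circles for v3 and triangles for v3.1, black bars for the mean of 4 libraries. Asns, Atf5, Eif4ebp1 and Hspa9 are higher and Wif1 and Klhl33 lower in Het in both classes by their means (Asns 31.3 in WT and 180.0 in Het Dmp1-0 mOBs), and Col9a1 spreads widely in Het.

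Whether the change with genotype differed between Dmp1-high and Dmp1-0 mOBs was tested directly. No gene of 7841 passed the edgeR test of the class by genotype term in either direction (0% higher and 0% lower). An unadjusted p under 0.05 was found for 380 genes by edgeR and for 154 by DESeq2, which also called none. For Asns the term was 0.00 ± 0.33 on the log2 scale, with Asns at 31.3 ± 12.6 in WT and 180.0 ± 122 CPM in Het Dmp1-0 mOBs. For Atf5, Eif4ebp1 and Wif1 it was 0.08 ± 0.33, 0.15 ± 0.23 and -0.29 ± 0.34. The terms of Eln, Col9a1 and Col9a2 were larger, 2.16 ± 0.61, 1.93 ± 0.66 and 2.21 ± 0.61, at edgeR adjusted p of 0.69, 0.9 and 0.69. So were those of Zfpm2 and H19, 2.92 ± 0.49 and 1.99 ± 0.46, at edgeR adjusted p of 0.59 and 0.69.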

How the data were processed

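UMI counts per gene and cell were deposited by the authors as filtered Cell Ranger matrices (version 5.0.0 for S1 to S4, 6.0.1 for S5 to S8; mm10 per the labels). Cells with at least 500 genes and under 10% mitochondrial UMIs were kept and OBs were selected by the thresholds given above, which were modelled on the description in the study and did not return the same number of OBs as it states. The selection of the Dmp1-high cells and the gene lists were made with earlier results of these data known. UMI counts were summed per library and class (at least 5 cells) and tested in edgeR 4.0.16 (filterByExpr, TMM, glmQLFit, glmQLFTest; R 4.3.3, limma 3.58.1) with the library as a block between classes and with the kit between genotypes. DESeq2 1.42.0 was an alternative. Scripts were tested on simulated data. Genes were called at a Benjamini-Hochberg adjusted p under 0.05. Named genes were those of the lists, and the 10 largest rises and falls between classes and 5 between genotypes (4 fell) among genes called with at least 20 CPM and 1 direction in all libraries or both kits, leaving out the selection genes, haemoglobin, Xist, Tsix, mitochondrial and Y genes; the further genes called between genotypes were named after their values were seen. A gene of the late OB list is not reported here. Per-library log2 differences used a pseudocount of 1 CPM. Doublets were not removed in the main results; as alternatives, cells with markers of another class (2 or more at 2 or more UMIs) or nearest to simulated doublets (2.73% to 9.10% of cells) were left out. Haematopoietic-like cells were non-OBs with at least 3 of 11 markers. Other alternatives changed the Dmp1 minimum (3 or 10), the mitochondrial limit (5%), the comparison cells, depth (thinning to 5000 UMIs), the filter, the scaling and the covariates, or left out 1 library. Because cells are not replicates and animals were pooled, p-values measure the spread between libraries, and binomial intervals and the limit of 3 counts cover counting error only.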

Additional observations from a re-analysis of the deposited data

Results flagged for a closer look

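One value stood far from the others of its group. Klhl33 in the Dmp1-high mOBs of WT library S2 was 76.6 CPM, while the other WT libraries lay between 38.0 and 40.8 CPM, so that the gap took 0.926 of the whole range of the 4 libraries. Of 42 groups of libraries checked in this way, chance alone would mark about 1 in 20.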

How the results depend on the processing

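The Het minus WT difference in the Dmp1-high share stayed without a call under every setting run, and changed sign with a minimum of 3 Dmp1 UMIs (-0.627 points) and when single libraries were left out (-1.89 to 3.36 points). The Col1a1 difference, given with no test, was 5.06 points over the 5 libraries left without cells holding other-class markers. The mitochondrial difference passed with a 5% limit (-0.419 points, exact p = 0.0313) and without Het library S7 (-0.527 points, exact p = 0.0313), and ranged from -0.527 to -0.298 points without single libraries. Between classes, 869 calls became 483 without cells holding other-class markers, 462 after thinning (3067 genes tested), 1335 with no filter on low counts, and 535 to 971 without single libraries. Between genotypes, 16 calls became 5 with at least 10 Dmp1 UMIs, 54 without cells holding other-class markers (2 of them among the 16), 82 without simulated doublets (S8 left out), 37 with DESeq2, 249 with no filter, 76 with at least 10 cells per library, 0 without the kit term, and 2 to 76 without single libraries. Without other-class markers S1, S2 and S8 had under 5 Dmp1-high cells, so the v3 kit held no WT library and the genotype contrast rested on Het library S7, with 5 cells, against S5 and S6. With the replicate block (library number within kit, which did not pair the samples, as deviations of same-numbered libraries correlated at -0.103 and -0.0156) 23 genes were called, and 835 between classes with no replicate block. Crossing the numbers of the v3 libraries in the replicate block, a choice made after seeing the data, also gave 23. For the class by genotype term, 0 calls became 10, 6, 66 and 3 without other-class markers, without simulated doublets, with no filter and with at least 10 cells, and 0 to 3 without single libraries. Why the counts moved was not tested, except that fewer cells, libraries or genes entered some settings. Mepe, Fgf23, Kcnk2 and Tnfsf11 were too low to test, and library S8 rested on 6 Dmp1-high cells.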

Other observations

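The genes below lie outside the lists and the largest changes and were chosen after their values were seen, so they stand for no group. Slit2 and Sema5a, axon guidance genes, were 435 ± 388 and 343 ± 181 CPM in Dmp1-high mOBs against 97.9 ± 42.1 and 93.9 ± 59.9 CPM in Dmp1-0 mOBs (SD, n = 8), and rose in all 8 libraries by 1.88 ± 0.30 and 1.95 ± 0.22 on the log2 scale. Bmp3, a bone morphogenetic protein that inhibits bone formation, rose by 2.0 ± 0.32, and Lgr6, a receptor for R-spondins, by 3.05 ± 0.20. Enpp6, a choline phosphodiesterase gene, and Galnt3, whose product glycosylates FGF23, rose by 2.22 ± 0.34 and 2.04 ± 0.31, although Fgf23 itself was found in 1 Dmp1-high cell. Cd109, a TGF-beta co-receptor, and Spns2, a sphingosine-1-phosphate exporter, rose by 1.85 ± 0.16 and 1.94 ± 0.17. Slit2 (486 CPM) and Sema5a (232 CPM) were already high in mOBs with 1 to 4 Dmp1 UMIs, whereas Cd109 (119 CPM) and Spns2 (40.6 CPM) were near their Dmp1-0 means of 122 and 32.8 CPM.

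Among the genes that fell, Ogn and Angptl2, of secreted proteins, gave log2 changes of -2.15 ± 0.31 and -2.70 ± 0.26, the contractile genes Tpm2 and Mylk -2.26 ± 0.29 and -2.31 ± 0.26, and Fgfr3, an FGF receptor, -2.37 ± 0.29, opposite in sign to Fgfr1. Each was lower in Dmp1-high mOBs of all 8 libraries.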
